A study of Drosophila melanogaster with 6 samples.

Results

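The brains compared here came from wandering Drosophila melanogaster larvae whose E347 neurons either carried the bacterial sodium channel NachBac or did not. The 2 control samples had the genotype w, E347-GAL4/w1118;+;+ and pooled 100 and 86 brains. The 2 activation samples had the genotype w, E347-GAL4/yw;+;UAS-NachBac and pooled 100 and 97 brains. All 4 samples carried E347-GAL4, a GAL4 driver that turns on UAS constructs in E347 neurons, and larvae were reared at 25 °C with 35 g of yeast in each liter of food. The groups differ in the chromosomes from the w1118 or yw parent as well as in UAS-NachBac, and these cannot be told apart. Whole brains were sequenced, so a value averages E347 neurons with every other brain cell. The series holds 6 samples in all, and the ablation samples enter only the closing section.

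The authors' table of this pair lists 21081 transcripts of 14012 genes, named by CG number. Of these, 11809 transcripts have the test status OK, and they belong to 8514 genes. Gene sums over the OK transcripts reached 10 FPKM in both groups for 5497 genes, which are the genes described here. FPKM scale the number of fragments by the size of the library and the length of the transcript, so levels can be compared between genes. The table gives 1 FPKM value per group and none per pool, so no value carries a spread between pools, and how deeply each pool was sequenced is unknown. Each gene's difference is given as log2((activation + 1)/(control + 1)) of its sums in FPKM. Close to the limit, ECSIT was kept at 10.003 FPKM in control and 13.6 in activation, and CG5455 was left out at 13.8 and 9.998. A further 583 genes reached 10 FPKM in activation alone and 360 in control alone.

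NachBac opens at more negative voltages than most native sodium channels and lets sodium in, and it is used in flies to make chosen neurons more excitable. Sustained activity calls on the sodium-potassium pump, on ATP from glycolysis and the respiratory chain, and on the transcription of activity-regulated genes. The larval brain holds differentiated neurons, glia and dividing stem cells called neuroblasts. It is dissected next to the ring gland, the imaginal discs and the fat body, which can be carried along.

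No transcript passed the 5% threshold between the groups. In the authors' deposited table, 0 of 11809 transcripts (0.00%) had a q-value of at most 0.05, and 11 (0.0931%) had one of at most 0.1. The smallest q in the authors' deposited table was 0.0537, shared by the 11 transcripts at the smallest p of 5e-05. At an unadjusted p under 0.05, 360 transcripts (3.05%) were counted, 217 higher in activation (1.84%) and 143 lower (1.21%). A p under 0.05 is therefore used below only to describe a gene, and no gene is said to have changed. Nothing says that the pools came from separate crosses, so any spread between pools behind these p-values may be technical. The settings of the authors' test were not given, so how it estimated the spread is unknown.

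Values of well-expressed genes lay close together in the groups. The median log2 difference over the 5497 genes was -0.0044, the middle 50% lay between -0.31 and 0.34, and the middle 95% between -1.03 and 1.09. The count was 2731 genes higher in activation (49.7%) and 2766 lower (50.3%). At or past 2-fold were 341 genes (6.20%), 195 higher (3.55%) and 146 lower (2.66%). A transcript with p under 0.05 was held by 248 of the 5497 genes (4.51%), with the gene sum higher in 127 (2.31%) and lower in 121 (2.20%). Only 88 genes met both conditions, and 160 with a small p were not past 2-fold. Genes were also binned by the geometric mean of their sums in the groups. The SD of the difference over genes was 0.50 at 10 to 20 FPKM, 0.58 at 20 to 50, 0.45 at 300 to 1000 and 0.54 at 1000 FPKM and more. The limit of 10 FPKM in both groups caps the differences possible in the lowest bin. These SDs therefore cannot show whether the spread depends on the level. The share of genes with a small p rose with the level, from 1.60% in the lowest of these bins to 13.3% in the highest.

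**Figure D1:**
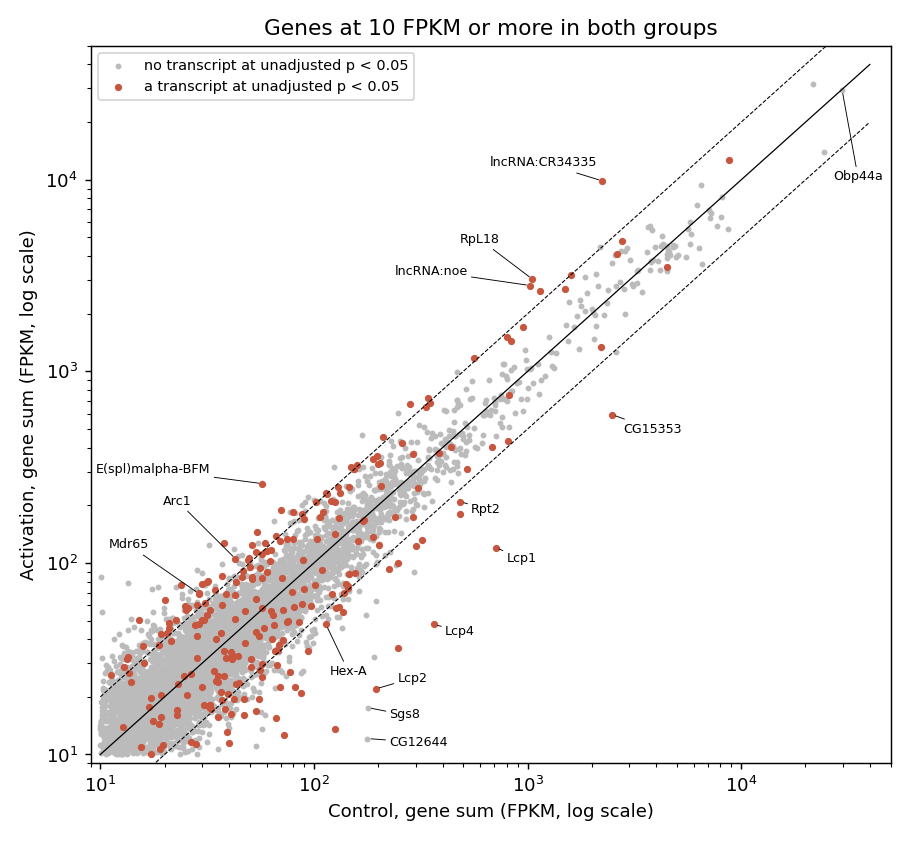
Gene sums in FPKM in control (x axis, log scale) and activation (y axis, log scale) for the 5497 genes at 10 FPKM or more in both groups, with dashed lines at 2-fold and genes holding a transcript with unadjusted p under 0.05 in red. Most points follow the diagonal, and the 4 Lcp genes and Sgs8 lie below the 2-fold line while lncRNA:CR34335 and RpL18 lie above it.

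Of the 11 transcripts at the smallest p, 8 had a group at or near 0. CG11300, CG13560 and CG32198 were listed at 0 in control and at 84.2, 44.8 and 124 FPKM in activation. CG14820, Eig71Ee and topi went the other way, from 8.75, 7.88 and 5.25 FPKM to 0. Ca-alpha1D, an L-type calcium channel gene, had transcript RD at 0.0001 FPKM in control and 2.12 in activation. The RB transcript of RpS3A, a small-subunit ribosomal protein gene on chromosome 4, was at 430 FPKM in control and 0 in activation, while the gene sum was 2629 in control and 4080 in activation. The 3 transcripts well above 0 in both groups were those of lncRNA:CR34335, RpL18 and CG15353. The noncoding RNA lncRNA:CR34335 (X, 3439875 to 3440160, build dm3) stood at 2234 FPKM in control and 9877 in activation. CG15353 (2L, 2006754 to 2007193) had 2489 FPKM in control and 595 in activation.

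The 15 genes with the largest excess in activation were mostly low in control and rarely held a small p. CG11279 led with 10.04 FPKM in control and 84.8 in activation, a log2 difference of 2.96. In the authors' deposited table its p was 0.102. mRpL34, a protein of the mitochondrial ribosome, followed at 13.4 and 78.8 FPKM, with p = 0.449 in the authors' deposited table. Of the 15 only lncRNA:CR34335, CG1648 and the Notch target E(spl)malpha-BFM held a p under 0.05. Gpa2, a subunit of a glycoprotein hormone, had 12.3 FPKM in control and 42.5 in activation. NdufV3, which encodes a protein of respiratory complex I, had 22.6 and 74.5. For Klp10A, a microtubule-depolymerizing kinesin, the OK transcripts summed to 14.0 FPKM in control and 51.0 in activation, but all its transcripts to 79.0 and 51.7, the opposite direction. The others were CG34293, CG15456, CG31800, CG34250, CG34183, CG30109 and CG5618, at log2 differences between 1.66 and 2.33.

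Among the 15 genes with the largest deficit in activation, 4 neighbouring genes for larval cuticle proteins stood together. Lcp1 had 709 FPKM in control and 120 in activation, Lcp2 195 and 22.0, Lcp3 247 and 36.02, and Lcp4 365 and 47.8. They lie between positions 4318139 and 4325908 of arm 2R and build the cuticle that the epidermis secretes. Their log2 differences ran from -3.089 to -2.55, and in the authors' deposited table their p-values were 0.0002, 0.0118, 0.0103 and 0.00015, with q = 0.182 for Lcp1 and 0.148 for Lcp4. Sgs8, a glue protein of the larval salivary gland, had 179 FPKM in control and 17.6 in activation, with p = 0.0525 in the authors' deposited table. CG12644 had the lowest difference of all, at 178 and 12.1 FPKM or -3.77, with p = 0.103 in the authors' deposited table. CG34166 had 126 and 13.6 FPKM, and Xpac, a nucleotide excision repair gene, 66.3 and 15.5. The OK transcripts of l(3)neo38, a zinc finger gene, summed to 56.9 and 13.6 FPKM, but all its transcripts to 174 and 178. The others were CG17105, CG14572, CG7849, CG15353, CG32234 and CG2059, and 10 of the 15 held a p under 0.05.

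**Figure D2:**
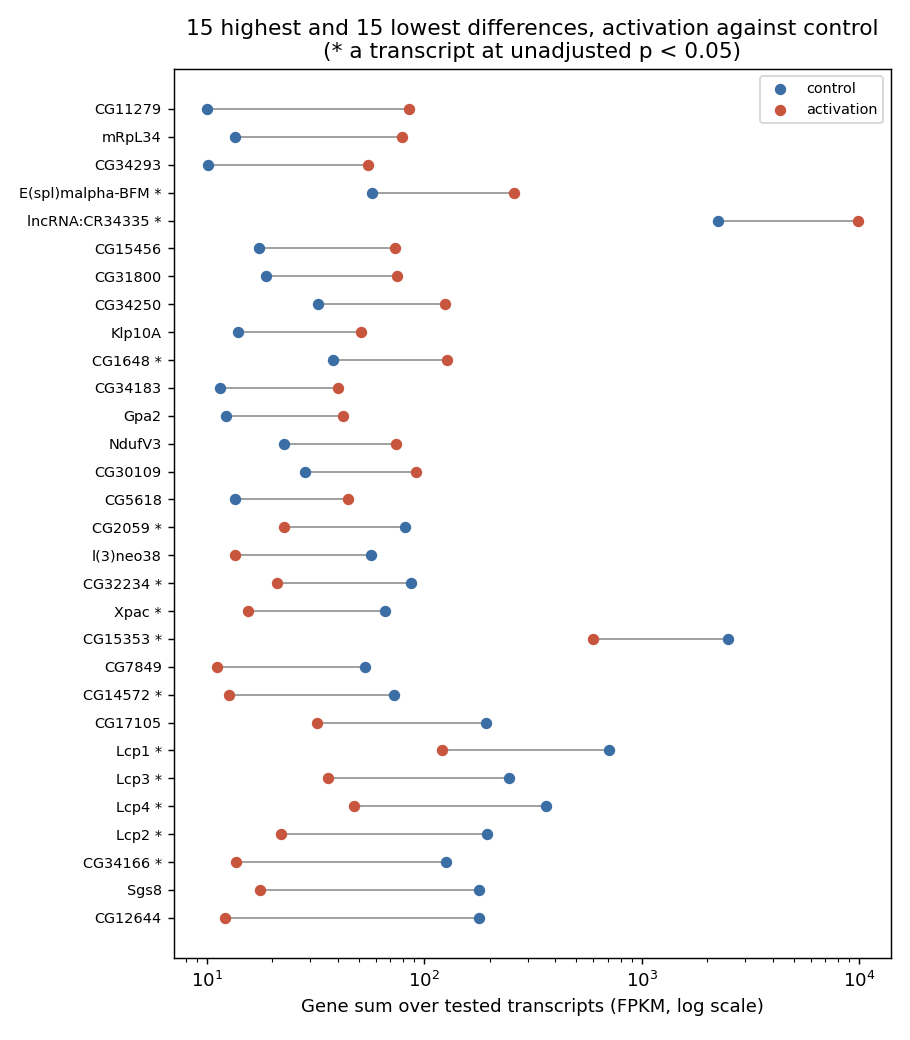
Gene sums in FPKM (x axis, log scale) in control and activation for the 15 genes with the largest excess and the 15 with the largest deficit in activation. Blue points are control and red points activation, joined by a line for each gene, an asterisk marks a transcript with unadjusted p under 0.05, and the Lcp genes run from 195 FPKM or more in control to 120 or less in activation.

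Marker genes of other tissues went in both directions. The fat body markers Lsp1alpha, Lsp1beta, Lsp1gamma, Lsp2 and Fbp1 were all lower in activation, for example the larval serum protein gene Lsp1beta at 35.2 FPKM in control and 8.71 in activation and Lsp2 at 32.2 and 6.11. Other fat body genes were higher, among them regucalcin at 64.2 and 87.2 FPKM and Tsf1, which encodes a transferrin, at 35.3 and 48.2, and 5 of the 9 fat body genes at the limit were higher, with a median of 0.14 that became -0.41 at a limit of 5 FPKM. In the salivary gland list, Sgs3 had 9.32 and 2.81 FPKM and Sgs7 46.5 and 37.2, while ng3 had 0.200 and 75.9, ng1 was at 0 and 15.9, and Sgs4 had 0.204 and 1.76. The muscle genes Act57B, Mlc2 and up were lower in activation, up at 12.8 and 3.57 FPKM, while Mhc stood at 0.387 and 0.639. The haemocyte marker Hml had 2.54 and 1.44 FPKM, while He had 1.99 and 2.78. In the list of haemocyte and basement membrane genes, SPARC had 58.2 and 63.0 FPKM and Col4a1 23.5 and 14.4. Of its 7 genes at the limit 3 were higher and 4 lower. The midgut trypsins alphaTry and betaTry were at 0 in both groups. Among ring gland genes, the hormone gene Akh had 9.07 and 1.55 FPKM and the cholesterol transport gene Npc1a 27.8 and 47.6. The ecdysone synthesis genes sad and spok went opposite ways, at 30.8 and 20.7 and at 23.5 and 34.3. Of the 6 ring gland genes at the limit 3 were higher. Summed over whole lists, 19 fat body genes had 616 FPKM in control and 573 in activation, 26 muscle genes 2080 and 1594, 25 haemocyte genes 255 and 225, 27 salivary gland genes 298 and 218, and 147 cuticle genes 1718 and 431. The sums of 17 ring gland genes, 187 and 201 FPKM, and of 63 midgut genes, 351 and 360, were higher in activation. Lcp1 to Lcp4 held most of the cuticle sum in both groups. Sgs8 held 179 FPKM of the salivary gland sum in control and 17.6 in activation. These genes were named above for their large deficits, so both sums repeat them. Argk1 held 1733 and 1315 FPKM of the muscle sum, and CtsL1 273 and 263 of the midgut sum. The part of carried-along tissue in the Lcp and Sgs8 values was not tested. In bulk samples such as these, fewer cells of a type and less RNA per cell cannot be told apart. Over the cuticle list, 5 of the 6 genes at the limit were lower, against 50.3% of all genes, with a median of -2.64. Those lower were Lcp1, Lcp2, Lcp3, Lcp4 and Cpr78E, so the median mostly repeats the Lcp genes. It became -1.01 at a limit of 5 FPKM and 0.41 with no limit. Cuticle genes under the limit went both ways. Pcp had 3.62 FPKM in control and 20.4 in activation and Gasp 2.95 and 13.3, while Cpr60D had 45.6 and 3.13 and Cpr49Ac 14.4 and 4.64.

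Markers of the brain's own cell types were present in both groups. The neuronal RNA-binding protein gene elav had 94.7 FPKM in control and 109 in activation, and nSyb, the vesicle SNARE of synapses, 68.1 and 91.8. The neuroblast gene mira had 103 and 123 FPKM. The glial transcription factor repo had 43.6 and 27.9 FPKM. The other glial markers were higher in activation, alrm at 76.5 and 99.6 FPKM, Mdr65 at 28.9 and 69.2 and moody at 8.79 and 14.0. Of the 12 neuronal genes at the limit 11 were higher in activation, with a median of 0.24 and none past 2-fold. Among those higher, Cadps, at 41.4 and 83.6 FPKM, lies on chromosome 4. nrv3, at 129 and 249, lies in the inner 2 Mb of arm 2L. Both regions are described below. Of the 22 neuroblast genes 13 were higher and 9 lower, with a median of 0.23, and again none past 2-fold. Over all transcripts, Syp had 367 and 278 FPKM, brat 188 and 149 and pros 161 and 130. Of the 22 only pros held a small p. Summed over the whole list of 27 neuroblast genes, the values were 1398 FPKM in control and 1342 in activation. Among 38 cell cycle and replication genes 21 were higher and 17 lower, with none past 2-fold and none with a small p.

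Among the genes linked to neuronal activity, Arc1 stood out. Arc1, which encodes a capsid-forming relative of the mammalian Arc protein, had 42.9 FPKM in control and 105 in activation. It held p = 0.00125 (q = 0.640 in the authors' deposited table). Other members of the list of 11 activity-regulated genes went both ways, 5 higher and 6 lower. CrebB, a cAMP-responsive transcription factor, had 55.1 and 21.2 FPKM, kay, the fly Fos, 23.8 and 41.7, and Jra, the fly Jun, 91.6 and 58.7. None of these 3 held a small p, and the list median of -0.27 became 0.02 at a limit of 5 FPKM. CG14186 had 25.8 and 15.9 FPKM.

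The beta subunits of the sodium-potassium pump had higher values in activation. nrv3, the neuronal subunit, had 129 FPKM in control and 249 in activation, with p = 0.00985 in the authors' deposited table. nrv2, found mainly in glia, had 58.9 and 127 FPKM over its OK transcripts and 137 and 199 over all of them. nrv1, the broadly expressed subunit, had 14.7 and 30.1 FPKM. Atpalpha, the catalytic subunit, stayed at 387 and 373 FPKM, its small p belonging to transcript RE, which had 0 and 5.60 FPKM. CaMKII, the calcium/calmodulin-dependent kinase, had 112 and 205 FPKM, and PMCA, the plasma membrane calcium pump, 114 and 187. SERCA, the calcium pump of the endoplasmic reticulum, went the other way at 86.9 and 51.3. Of 14 pump and exchanger genes 10 were higher, with a median of 0.44, and 1 was past 2-fold.

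Ion channels, synaptic genes and peptides held few small p-values. None of 9 voltage-gated and potassium channels at the limit was past 2-fold or held a small p. Ih, the hyperpolarization-activated channel, had 26.9 and 13.2 FPKM, and the potassium leak channel Task7 had 12.5 and 22.4. Of 24 synaptic release genes 16 were higher, and 2 held a small p: Rop, the fly Munc18, at 121 and 69.0 FPKM, and the priming factor unc-13, whose RA transcript carried it, at 37.2 and 60.1. Cadps, which acts in dense-core vesicle release, had 41.4 and 83.6 FPKM. Of the genes named here as higher, unc-13, Cadps, PMCA, CaMKII, the GABA transporter gene Gat and the semaphorin receptor gene PlexA lie on chromosome 4, and nrv3 lies in the inner 2 Mb of arm 2L. Most genes of chromosome 4 were higher, 54 of 58. Of 32 neuropeptide genes 19 were higher, and 2 were past 2-fold, Gpa2 and the sulfakinin gene Dsk at 15.1 and 32.4 FPKM. Dsk lies in the inner 2 Mb of arm 3R, where 52 of 126 genes were higher, and Gpa2 is listed on U, outside the named arms. None of the 32 held a small p. Of 13 genes of transmitter synthesis and transport 6 were higher, and of 10 receptors 4 were, with medians of -0.16 and -0.17. With no limit both medians turned, to 0.10 and 0.28.

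In glia, genes of the blood-brain barrier and of transmitter uptake differed in direction. Mdr65, an ABC transporter of the barrier, had 28.9 FPKM in control and 69.2 in activation, with p = 0.00145 in the authors' deposited table. sinu, a claudin of septate junctions, had 28.7 and 13.2 FPKM. The GABA transporter gene Gat had 32.7 and 57.2 FPKM and the glutamate transporter gene Eaat1 68.6 and 97.4, while the glutamine synthetase gene Gs2 had 291 and 173. The 22 glial genes split into 12 higher and 10 lower, with a median of 0.03.

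Genes of energy supply scattered around 0, with single genes on either side. Hex-A, the main fly hexokinase, had 114 FPKM in control and 47.8 in activation, with p = 0.00155 in the authors' deposited table. The other 14 glycolytic genes were within 2-fold, and 6 of all 15 were higher. Among 67 genes of the respiratory chain 26 were higher and 41 lower (median -0.17), and a small p was held by 4 on each side. Among all genes a small p was held by 4.51%, by 7.04% of those at 100 to 300 FPKM and by 8.93% of those at 300 to 1000. The complex I genes ND-MNLL and ND-23 had 481 and 180 FPKM and 225 and 93.1, and ND-51 had 155 and 88.6. ND-MLRQ, in the inner 2 Mb of arm 3L, was higher in activation at 840 and 1440 FPKM. The complex I gene NdufV3, which is outside this list, was also higher, at 22.6 and 74.5. ATPsynF, ATPsynB and ATPsynO belong to the same ATP synthase, yet ATPsynF had 341 and 724 FPKM and ATPsynB 197 and 360, while ATPsynO had 814 and 431. Of 70 mitochondrial ribosomal proteins 30 were higher and 40 lower, and none held a small p.

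The cytoplasmic ribosome was centred on 0, with a few subunits higher. RpL18 (3L, 7231642 to 7234449) had 1051 FPKM in control and 3036 in activation, with p = 5e-05 in the authors' deposited table. RpL24 had 1147 and 2628 FPKM, RpL37A 1603 and 3197, RpS10b 1489 and 2679, and RpL22 954 and 1711, all with p under 0.05. Of 74 genes at the limit 39 were higher and 35 lower (median 0.01), and 8 of those higher held a small p against 1 of those lower. The share of all genes with a small p was 4.51%, and 13.3% among genes at 1000 FPKM and more, where most of these genes lie. In RpS29 and RpS3A, the transcript with the small p was itself lower in activation. Sums of OK transcripts cover little of RpS9, at 18.3 FPKM of 5768 in control, and over all transcripts RpS9 was at 5768 and 4627. RpS12, RpL12 and RpL3 were also covered only in small part. Cuffdiff gives no test result in the states NOTEST, LOWDATA and FAIL. NOTEST was held by 8845 transcripts, the highest of them at 3.37 FPKM in control. Transcripts left out as LOWDATA or FAIL numbered 123 at 10 FPKM or more in both groups. Of these, 16 were ribosomal, such as RC of RpL29 at 13598 and 9721 FPKM and RA of RpLP2 at 1007 and 5110.

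In protein quality control, a few heat shock proteins had higher values in activation and a proteasome subunit a lower one. Hsp67Bc had 348 FPKM in control and 682 in activation, Hsp68 564 and 1173, and DnaJ-1, an Hsp40 cochaperone, 259 and 423. Each of the 3 held a p under 0.05, while Hsp26, at 2182 and 4487, had p = 0.0568 in the authors' deposited table. The other chaperones kept the list of 27 centred at -0.02, with 13 higher. Rpt2, an ATPase subunit of the proteasome, had 485 and 209 FPKM, with p = 0.0003 (q = 0.253 in the authors' deposited table). The other 29 proteasome genes were within 2-fold.

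Enhancer of split genes, which Notch signalling switches on in neural progenitors, spread widely. E(spl)malpha-BFM had 57.3 FPKM in control and 259 in activation, E(spl)m7-HLH 54.4 and 146, and E(spl)mgamma-HLH 102 and 207. Their p-values in the authors' deposited table were 0.0295, 0.0252 and 0.019, each with q = 0.915. E(spl)m8-HLH went the other way at 269 and 169 FPKM, and E(spl)mdelta-HLH was at 59.0 and 57.1. The receptor gene N had 28.2 and 23.7 FPKM. Of 21 genes of the pathway 10 were higher and 11 lower, with a median of -0.02 that became 0.07 and 0.17 at limits of 5 and 20 FPKM.

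Hormone and growth signalling genes lay on both sides of 0. The insulin-like peptide genes of the brain, Ilp2 and Ilp5, had 318 and 296 FPKM and 292 and 297, and Ilp3 had 35.0 and 69.0. ImpL2, a secreted insulin antagonist, had 163 and 71.2 FPKM. Of 22 insulin and TOR genes 12 were higher, with a median of 0.07. Of 9 ecdysone response genes 6 were higher, and none was past 2-fold. Of 10 cell death genes 8 were higher, led by the caspase activator rpr at 13.9 and 34.5 FPKM. Of the 2 cell death genes with a small p, Diap1 and egr, each held it in a transcript that was lower in activation while the gene sum was higher.

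**Figure D3:**
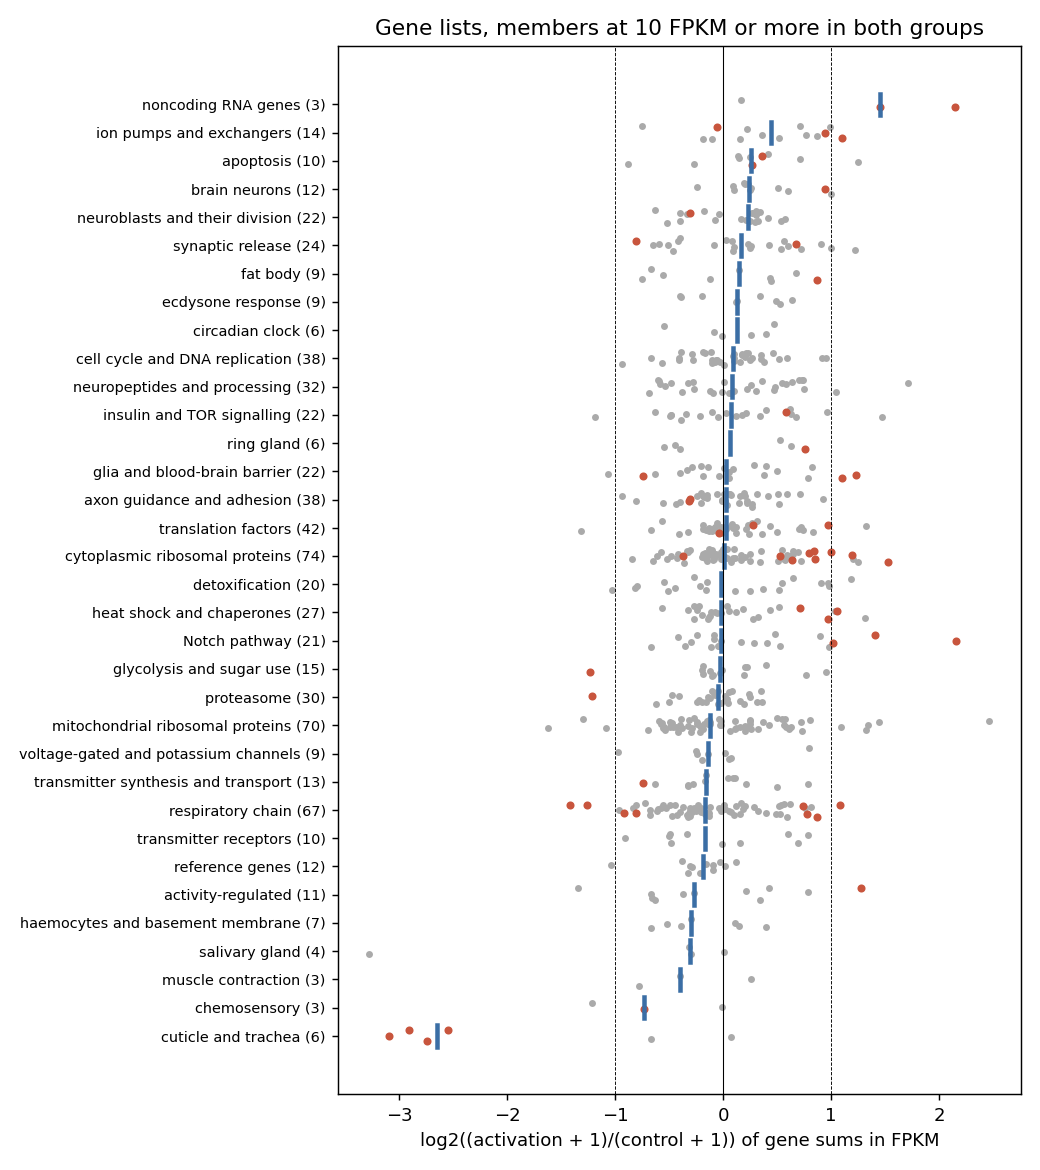
Log2((activation + 1)/(control + 1)) of each gene at 10 FPKM or more in both groups (x axis), by gene list of 3 or more such genes (y axis, number of genes in brackets), with the list median as a blue bar and genes holding a transcript with unadjusted p under 0.05 in red. Most medians lie within 0.3 of 0, and the cuticle list, at -2.64, and the 3 noncoding RNA genes, at 1.45, lie farthest out.

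The remaining lists were centred near 0 or held few genes. Of 42 translation factors 22 were higher, among them eIF1, which selects the start codon, at 334 and 653 FPKM. Of 12 genes often used as references 10 were lower, with a median of -0.19, and betaTub56D, a beta-tubulin gene, had 5054 and 4044 FPKM. Act5C, a cytoplasmic actin gene, had 2607 and 1267 FPKM over its OK transcripts and 5003 and 4451 over all. Of 38 axon guidance and adhesion genes 21 were higher, and none was past 2-fold. Dscam1, an adhesion molecule with many isoforms, had 55.8 and 28.6 FPKM, and the semaphorin receptor gene PlexA 43.8 and 84.3. Of 20 detoxification genes 10 were higher, with the P450 gene Cyp12e1 at 13.5 and 32.0 FPKM and the glutathione transferase gene GstE1 at 109 and 52.9. The 3 noncoding RNA genes at the limit were all higher, lncRNA:noe at 1026 and 2808 FPKM and lncRNA:mimi at 176 and 198.

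Outside these lists, further genes with a small p were picked after their values were seen. corto, a chromatin protein gene, had 32.1 FPKM in control and 80.4 in activation. PIP4K, a phosphoinositide kinase gene on chromosome 4, had 70.2 and 188. Gprk1, a G protein-coupled receptor kinase gene, had 51.0 and 124. The adhesion gene p120ctn had 115 and 229 FPKM, and chrb, an inhibitor of TOR signalling, 49.1 and 104. Gprk1 and p120ctn lie in the inner 2 Mb of arm 2R, where 41 of 48 genes were higher. corto lies in the inner 2 Mb of arm 3R, where 52 of 126 were higher. On the lower side, Orct2, an organic cation transporter gene, had 53.6 and 16.8 FPKM, and Pgm1, which encodes phosphoglucomutase, 139 and 69.7. In the authors' deposited table these 7 had p-values between 0.00075 and 0.00725.

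Genes of chromosome 4 and of heterochromatin were higher in activation far more often than other genes. These regions were also picked after values were seen, so the counts are a description. Chromosome 4 is a small chromosome rich in heterochromatin, the compact chromatin around centromeres. Of its 58 genes at the limit 54 were higher (93.1%, against 49.7% of all genes), with a median of 0.71. At or past 2-fold were 10 of the 58 higher and 0 lower, and a small p was held by 14 higher and 0 lower. Over all genes, 3.55% were past 2-fold higher and 2.66% lower, and 2.31% and 2.20% held a small p. PIP4K, MED26, apolpp, unc-13 and RpS3A were among the 14, RpS3A through its RB transcript, which went from 430 FPKM to 0. MED26, a Mediator subunit gene, had 24.9 FPKM in control and 59.4 in activation, with p = 0.00315 in the authors' deposited table. ci, the transcription factor of Hedgehog signalling, had 13.6 and 26.7 FPKM, and Rad23, which acts in DNA repair and protein degradation, 120 and 211. The lipoprotein gene apolpp had 45.9 and 84.7 FPKM. The 4 that were lower were all transcription factor genes, among them ey and toy, the fly Pax6 genes, at 39.3 and 22.4 FPKM and at 78.4 and 61.3. Of 31 genes on the heterochromatin scaffolds of dm3, 30 were higher, with a median of 0.71, and rl, the fly ERK kinase gene, had 19.8 and 58.4 FPKM. The ribosomal protein gene RpL15, on a 3L scaffold, had 2764 and 4803 FPKM. The ecdysone synthesis gene spok, named above as higher, lies on a 3R scaffold.

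The same direction was seen next to some centromeres and not others. Within 2 Mb of the inner end of arm 2R, 41 of 48 genes were higher (median 0.54), for example Nipped-A, a subunit of histone acetyltransferase complexes, at 15.9 and 36.8 FPKM. The inner 2 Mb of 3L had a median of 0.31 over 27 genes and those of 2L 0.18 over 44. Those of 3R and X had -0.05 over 126 genes and -0.09 over 37. In the rest of the arms 48.5% of 5124 genes were higher, with a median of -0.02. The median for chromosome 4 lay between 0.63 and 0.72 under each alternative pseudocount, limit, sum and centring, and that of the scaffolds between 0.67 and 0.72. The third chromosome, on which the labels place UAS-NachBac, had a median of -0.02 over the 2435 genes of 3L and 3R.

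**Figure D4:**
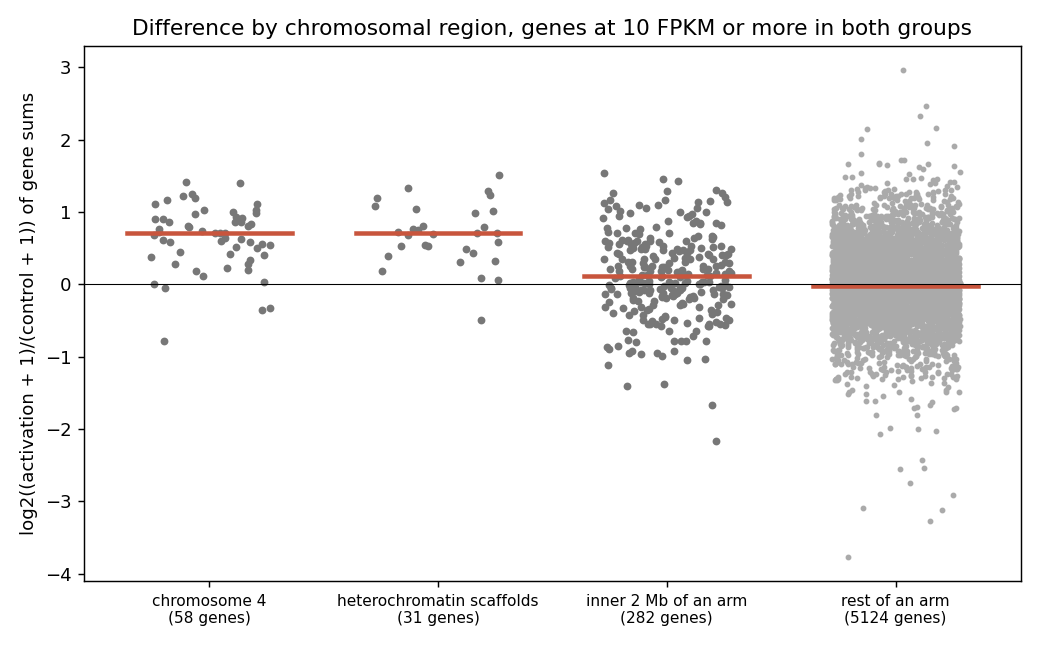
Log2((activation + 1)/(control + 1)) per gene (y axis) by region (x axis), for genes at 10 FPKM or more in both groups, with the median of each region as a red bar. Chromosome 4 and the heterochromatin scaffolds have medians of 0.71, while the rest of the arms has -0.02.

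Within genes, transcript shares often differed without a small p. Of 1602 genes with several OK transcripts 485 had a different main transcript in the groups, and 41 of these held a p under 0.05. The median largest change of a share was 20.1 percentage points, and 213 genes reached 50 points. REPTOR-BP, a partner of the TOR-regulated factor REPTOR, was nearly all transcript RB in control at 59.99 FPKM and all transcript RC in activation at 90.0. Girdin, an actin-binding protein gene, held 99.98% of its sum in RB in control and 94.1% in RA in activation. CG32772 went from 95.9% RB to 99.99% RA, at a gene sum of 26.6 and 26.2 FPKM. Pink1 and Pfrx complete the 5 genes with the largest share changes. Cuffdiff divides reads among overlapping transcripts, and without values per pool the spread of these shares is unknown.

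Genes named in the genotypes were examined last. NachBac itself is a bacterial gene and was not analysed here. The eye pigment transporter gene w, also a common marker of fly transgenes, had 3.45 FPKM in control and 25.9 in activation, with p = 0.0277 (q = 0.915 in the authors' deposited table). The pigment gene y had 0.213 and 0.585 FPKM. The fly's own voltage-gated sodium channel gene para had 2.03 and 2.90 FPKM over all transcripts, under the limit used here, and shi, the dynamin gene, 67.7 and 74.0. The expression of the transgene was therefore not checked by these values.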

How the data were processed

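The submitters' processing notes name TopHat2, Cufflinks and Cuffdiff as tools and dm3 as the build, while tool versions and settings were not given in the sources used here. Altogether the authors deposited 3 Cuffdiff tables, and the one of control against activation (named induction there) is the base of the report. The deposited values are FPKM, 1 per group. The deposited log2 fold change is the authors' ratio of these, and the deposited test statistic is a score. Cuffdiff's test of the groups, of 2 pools each, gave each deposited p-value, and how it used the pools was not given. Each deposited q-value is adjusted from the p-value.

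From these, gene sums over transcripts with status OK and log2 differences with a pseudocount of 1 FPKM were computed. Benjamini-Hochberg values recomputed over OK transcripts differed from the deposited q by at most 5.15e-07. Genes were matched by CG number, with 12914 found through the locus tag, 171 through a synonym and 927 left with a CG number alone. Coordinates are those of the deposited loci, counted from 1. The 36 gene lists and the members were chosen with earlier results of these data known, and 2 entries that matched another gene than meant were left out after values were seen. Named genes are those of the genotypes, the transcripts at the smallest p, the 15 genes with the highest and the 15 with the lowest difference, in each list up to 4 genes with the largest difference and any with a p under 0.05 (of these the text gives a selection), the leading markers of other tissues, and the 5 genes with the largest share changes. The computation was tested on simulated data. Depth and values per pool are not in the table, so no test across samples of its own was added. The tools were Python 3.11.15, matplotlib 3.10.9, pandas 2.3.3, numpy 2.4.6 and scipy 1.17.1.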

Additional observations from a re-analysis of the deposited data

How the results depend on the processing

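No paired analysis was possible because the table holds group values only, and leaving out a pool could not be run for the same reason. Of 11809 transcripts 0 were called at q of at most 0.05 and 11 at 0.1. With the deposited statistic read as a normal score, 8 of 11068 were called. Transcripts listed at 0 in a group, 499 in control and 242 in activation, have no such statistic and dropped out. Among 9566 transcripts at 1 FPKM or more in both groups 0 were called. The 360 transcripts with p under 0.05 (217 higher, 143 lower) became 141 of 11068 (72 and 69) with the normal score. At 1 FPKM or more they were 222 of 9566 (106 and 116, so with more lower than higher). At 10 FPKM or more they were 193 of 5602 (99 and 94). The 341 genes past 2-fold (195 higher, 146 lower) became 553 (330 and 223) at a limit of 5 FPKM, 180 (101 and 79) at 20 FPKM and 1349 (933 and 416) with no limit, where the median moved from -0.0044 to 0.105. At 1.5-fold there were 1320 (733 and 587) and at 3-fold 46 (20 and 26). Pseudocounts of 0.1 and 5, sums over all transcripts and centring moved none of these counts by over 1.5 times. The median of 15 of the 36 lists changed sign under at least 1 alternative. With no limit, cuticle went from -2.64 to 0.41, chemosensory from -0.73 to 0.62, salivary gland from -0.31 to 0.12, midgut from 0.46 to -0.06, channels from -0.14 to 0.04, detoxification from -0.02 to 0.54, activity-regulated from -0.27 to 0.28, transmitter synthesis from -0.16 to 0.10, receptors from -0.17 to 0.28 and fat body from 0.14 to -0.41. At 20 FPKM, haemocytes went from -0.30 to 0.14 and cell cycle from 0.10 to -0.01. Notch, heat shock and ribosomal medians, within 0.03 of 0, also turned. The cause was not tested.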

Other observations

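The other deposited tables give the same chromosome regions beside ablation larvae, which carried a dominant-negative shibire transgene. In the table of control and ablation, 50 of 58 genes of chromosome 4 were higher in ablation, with a median of 0.56, and 30 of 32 on the heterochromatin scaffolds, with a median of 0.54. This table shares its control samples with the comparison of activation and control. In the table that sets ablation directly against activation, 14 of 63 genes of chromosome 4 were higher in ablation, with a median of -0.15, and 9 of 32 on the scaffolds, with a median of -0.20. Past 2-fold were 384 of 5583 genes in ablation against control, 341 of 5497 in activation against control and 48 of 5870 in ablation against activation.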
